A study of Mus musculus with 6 samples.

Results

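A set of 10 genes that make, store and release transforming growth factor beta (TGF-beta) were followed in neutrophils sorted from mouse lung. The members are Tgfb1, Ltbp1, Ltbp3, Ltbp4, Lrrc32, Nrros, Itgav, Itgb8, Thbs1 and Furin, 10 of the 55487 genes in the deposited count table, chosen by name for their known roles. All 10 were found by gene identifier, and 9 passed the filter on low counts; Itgb8 did not. RNA-seq was made from 6 libraries of Ly6G-positive cells, 3 from each of 2 groups of mice. The mutant mice carried loxP-flanked Tgfbr2 (TGFbR2-fl/fl) and a Cre-EGFP transgene under the S100A8 (Mrp8) promoter, which is active in neutrophils and their precursors; the floxed allele is that of the strain B6;129-Tgfbr2tm1Karl/J. The wt mice were littermates with the same loxP-flanked alleles and no Cre, so both groups carry the altered Tgfbr2 allele and the groups differ in the transgene as well as in its effect on Tgfbr2. The sources used here do not state age or sex, and no label says whether each library came from 1 animal; p-values here reflect only library-to-library spread, which may be technical.

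TGF-beta is secreted in a latent form. The precursor is cut by furin-type proteases into the mature cytokine and a propeptide, the latency-associated peptide, which stays wrapped around the cytokine and blocks it. Carrier proteins then fix the latent complex in place: the LTBP proteins tether it to the extracellular matrix, and the membrane proteins GARP (gene Lrrc32) and LRRC33 (gene Nrros) hold it on the surface of regulatory T cells and platelets and of myeloid cells, respectively. Integrins that bind the propeptide, above all the pairs of the alpha-V chain (Itgav) with the beta-6 or beta-8 chain (Itgb8), and the secreted protein thrombospondin 1 (Thbs1) free the cytokine. Freed TGF-beta is bound by the type II receptor that Tgfbr2 encodes.

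The release steps can be read in the ligand genes themselves, and the coding sequences of the GENCODE M21 transcripts (GRCm38, sense strand) are shown for the sites that the integrins and furin recognise. The codons for arginine, glycine and aspartate, the peptide that alpha-V integrins bind, were searched in frame in all 3 ligand genes. They were found 1 time in Tgfb1 (transcript Tgfb1-201, codons 244 to 246 of 390) and 1 time in Tgfb3 (Tgfb3-201, codons 261 to 263 of 412). In Tgfb2 (Tgfb2-206, 442 codons) the search found 0, so the ligand genes differ at the site that Itgav-containing integrins use. The capitals mark these codons, with 7 codons on each side.
Tgfb1 integrin site: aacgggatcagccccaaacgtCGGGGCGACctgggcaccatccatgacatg
Tgfb3 integrin site: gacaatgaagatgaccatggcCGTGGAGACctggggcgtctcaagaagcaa

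The furin-type cutting site was searched as in-frame codons for arginine, any residue, lysine or arginine, and arginine. Each ligand gene held 1 such site, at codons 275 to 278 in Tgfb1, 327 to 330 in Tgfb2 and 297 to 300 in Tgfb3, and in each of them exactly 112 codons followed before the stop. That stretch encodes the mature cytokine. The capitals mark the codons of the cutting site.
Tgfb1 cutting site: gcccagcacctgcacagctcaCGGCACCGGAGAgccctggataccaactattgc
Tgfb2 cutting site: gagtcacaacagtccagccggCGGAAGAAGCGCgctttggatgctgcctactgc
Tgfb3 cutting site: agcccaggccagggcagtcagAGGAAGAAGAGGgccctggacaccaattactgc

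Library totals ran from 30403494 to 35906780 counts. Tgfbr2 itself spanned 176 to 205 CPM (read counts scaled to library size with TMM factors) in mutants and 185 to 201 CPM in wt, and edgeR's quasi-likelihood test gave a log2 fold change of -0.03 ± 0.10 (SE, adjusted p = 0.996). These counts pool all exons and do not check the genotype labels. The 12 neutrophil markers summed to 23396 to 28957 CPM in mutants against 24193 to 25569 in wt, and 0 of them passed edgeR's test. Still, the libraries of the groups did not overlap for S100a8, Cxcr2 and Il1r2. Over all tested genes, the mutant libraries lay above each wt library in 6.82% and below each in 6.21%. S100a8, which shares its name with the promoter of the transgene, was at 966, 1507 and 973 CPM in mutants and 1687, 1752 and 1688 CPM in wt. The chemokine receptor gene Cxcr2 was at 1946 to 2136 CPM in mutants against 2475 to 2623 in wt. Il1r2, a decoy receptor gene for interleukin 1, was at 6517 to 7699 CPM in mutants against 4719 to 5941 in wt. Csf3r, the G-CSF receptor gene, was at 7689 to 9233 CPM over all libraries, and Ly6g, the gene of the sorted surface protein, at 14.4 to 35.2 CPM. Markers of other cells were also present. Summed over lists of 12 to 14 genes, alveolar macrophage markers reached 665 to 1332 CPM in mutants against 378 to 606 in wt, and fibroblast markers 768 to 1328 against 656 to 751. Epithelial markers reached 554 to 1021 CPM in mutants against 271 to 561 in wt, and endothelial markers 1536 to 1848 against 1688 to 2063. In such bulk samples, a change in the number of cells of a type cannot be told apart from a change in RNA per cell.

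Per kilobase of exon the 10 members spanned the range from undetected to among the most abundant genes in the wt libraries. These libraries also held the markers of other cells given above, and the part of those cells in the levels was not tested. RPKM (CPM per kilobase of the gene's merged exons) allows levels to be compared between genes. Thbs1 was highest at 532 ± 17.9 RPKM (SD, n = 3), above 99.4% of the 15774 genes tested. Nrros followed at 112 ± 4.39 RPKM, above 97.5% of the tested genes, and thus led the carrier genes. Ltbp4, an LTBP of elastic fibres, was at 18.3 ± 1.18 RPKM and Furin at 11.6 ± 0.734. Lrrc32 was at 5.17 ± 0.849 RPKM, so within each wt library the myeloid carrier gene Nrros exceeded Lrrc32 19.1-fold to 25.7-fold.

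The lower members included the ligand gene. Itgav was at 2.45 ± 0.611 RPKM and Ltbp1 at 2.15 ± 0.441, and their wt ranges overlapped. Ltbp3 at 0.685 ± 0.267 and Tgfb1 at 0.444 ± 0.0773 RPKM (SD, n = 3) overlapped as well. Tgfb1 stood above only 21.9% of the tested genes. Itgb8 had 0 counts in all 3 wt libraries. Every other pair of neighbours in this order was separated, with no overlap of the wt ranges, and the order by mean was the same in the mutant libraries. The merged exons of all Tgfb1 transcripts cover 5042 bases, while its longest coding transcript has 2175. Per kilobase of the longest coding transcript Tgfb1 was at 1.03 RPKM and kept rank 9, and Furin (24.5 RPKM) and Ltbp4 (21.9 RPKM) changed places.

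**Figure D1:**
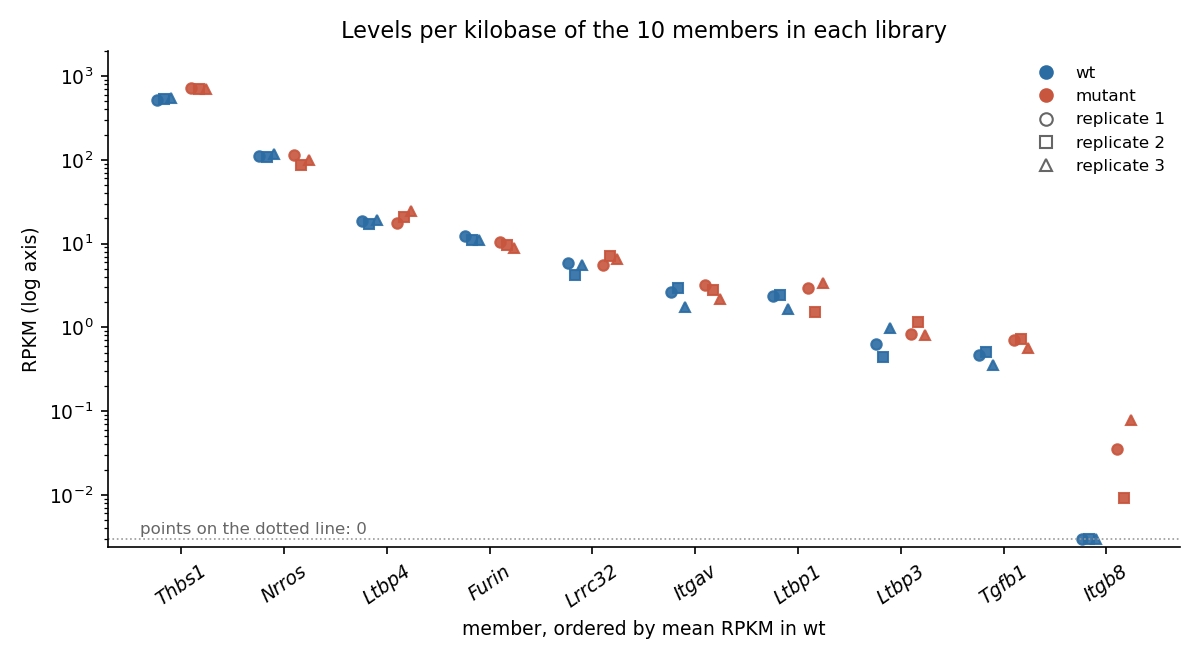
RPKM of each member in each library on a log axis, in the order of the wt mean; blue points are wt, red points mutant, and marker shapes give the replicate. Thbs1 and Nrros lie above 80 RPKM in all 6 libraries, Tgfb1 below 1, and the wt points of Itgb8 are at 0.

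The members also differed in base composition. The longest coding transcripts of Tgfb1, Ltbp4 and Ltbp3 had GC contents of 62.5%, 62.2% and 61.5%, above 99.0%, 98.8% and 98.3% of the 13026 tested genes with such a transcript. Thbs1 was at 49.9% (48.5% of genes lower), Nrros at 53.5%, Itgav at 43.6% and Itgb8 at 40.4% GC. High GC went with a low level in Tgfb1 and Ltbp3 but not in Ltbp4. Over all genes, the median in wt was 1.92 RPKM for the 3059 under 45% GC, 2.18 from 45% to 50%, 2.77 from 50% to 55%, 2.83 from 55% to 60% and 1.81 for the 538 with at least 60%, so both ends of the GC range had lower medians than the middle. The part of base composition in these levels was not tested.

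The comparison of mutant with wt libraries asks whether neutrophils targeted for loss of the type II receptor change the genes that supply and activate its ligand. At an adjusted p under 0.05 (edgeR's quasi-likelihood test, Benjamini-Hochberg over all 15774 genes) 0 of the 9 tested members were higher and 0 lower. The background was 0.00634% of all tested genes higher and 0.0% lower. With unadjusted p under 0.05, 1 member was higher (Thbs1) and 1 lower (Furin), against 3.51% and 3.22% of all tested genes. DESeq2 called 1 member, Thbs1, higher, where it called 0.514% of tested genes higher and 0.469% lower. The 3 mutant libraries exceeded each wt library in 2 of the 9 tested members, Thbs1 and Tgfb1, and lay below each in 1, Furin. This was so for 6.82% and 6.21% of all tested genes. The log2 fold change was positive in 7 of the 9 and in 50.7% of all tested genes, with a median of 0.28 among the members and 0.01 over all genes. The members were chosen with earlier results of these data known, so these counts are a description.

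The ligand gene Tgfb1 (ENSMUSG00000002603.15, chromosome 7, plus strand, 25687002 to 25705077) encodes the main TGF-beta of immune cells. Its level was 3.59, 3.63 and 2.83 CPM in mutant replicates 1 to 3 and 2.33, 2.58 and 1.81 CPM in wt replicates 1 to 3. Every mutant library was above every wt library, with the smallest gap between mutant replicate 3 and wt replicate 2. Only 58 to 130 reads per library stood behind these values. The ratio of the means was 1.495, and edgeR gave a log2 fold change of 0.58 ± 0.38 (SE; 95% interval -0.27 to 1.43) with adjusted p = 0.882. At this depth the 95% interval included 0, and Tgfb1 did not pass.

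The other ligand genes, described for comparison, were as follows. Tgfb3, whose product carries the integrin site, was at 2.17, 2.23 and 4.34 RPKM in mutants and 2.00, 2.48 and 2.25 RPKM in wt. In each of the 6 libraries Tgfb3 exceeded Tgfb1 per kilobase, 3.05-fold to 7.73-fold. With the length of the longest coding transcript the wt ratio was 2.18. Mutant replicate 3, with the highest Tgfb3, also had the highest summed markers of fibroblasts (1328 CPM), epithelial cells (1021 CPM) and alveolar macrophages (1332 CPM) of all 6 libraries, and the part of these cells was not tested. Tgfb2, whose coding sequence lacks the integrin codons, was at 0.411, 0.316 and 0.372 RPKM in mutants and 0.567, 0.416 and 0.524 in wt. Its mutant libraries lay below each of the wt libraries (log2 fold change -0.46 ± 0.40, adjusted p = 0.934, edgeR). The ratio of Tgfb2 to Tgfb1 per kilobase was 0.439 to 0.662 in mutants and 0.815 to 1.46 in wt, and the difference between these ratios was not tested. Whether Tgfb2 or Tgfb1 ranked higher in wt depended on the length used, the ratio of their means being 0.552 with the longest coding transcripts.

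**Figure D2:**
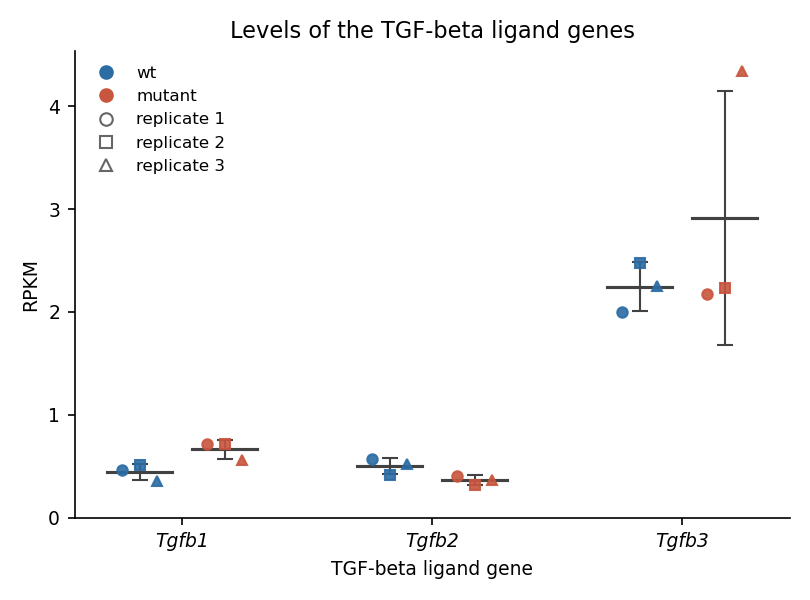
RPKM of the 3 TGF-beta ligand genes in each library, with the mean and SD (n = 3) of each group as bars; blue is wt and red mutant. Tgfb3 lies between 2.00 and 4.34 RPKM, above Tgfb1 and Tgfb2 in every library, and its highest point is mutant replicate 3.

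Furin (ENSMUSG00000030530.15, chromosome 7, minus strand, 80388585 to 80405436) encodes the protease that cuts the TGF-beta precursor at the site printed above. Its level was 95.8, 87.2 and 80.6 CPM in mutants and 114, 102 and 103 CPM in wt. All mutant libraries were below all wt libraries, and the mean was 1.21-fold higher in wt. The log2 fold change was -0.27 ± 0.12 (SE; 95% interval -0.53 to -0.01), with an unadjusted p of 0.0403 and an adjusted p of 0.700 by edgeR. Furin therefore did not pass the test. Exons of Furin share 118 bases with Gm44851, which had 1.07% as many counts as Furin. Of the related proprotein convertases Pcsk5, Pcsk6 and Pcsk7, 0 of 3 passed, and the most abundant, Pcsk7, averaged 81.4 ± 6.005 CPM (mutants) and 86.3 ± 4.58 CPM (wt; SD, n = 3 per group), with exons that Rnf214 and Tagln overlap.

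The 3 LTBP genes among the members, whose products tie latent TGF-beta to the matrix, overlapped between groups. Ltbp1 (chromosome 17, plus strand, 75005568 to 75392512) was at 31.3, 16.3 and 36.4 CPM in mutants and 25.2, 26.3 and 17.6 CPM in wt. Mutant replicate 2 was the lowest of all 6 libraries, and the other mutant libraries were the highest. Its log2 fold change was 0.28 ± 0.28 (adjusted p = 0.943, edgeR). Ltbp3 (chromosome 19, plus strand, 5740904 to 5758532) was at 7.46, 10.5 and 7.26 CPM in mutants and 5.78, 4.03 and 8.81 CPM in wt. Here wt replicate 3 exceeded mutant replicates 1 and 3 (log2 fold change 0.43 ± 0.33, adjusted p = 0.911). Ltbp4 (chromosome 7, minus strand, 27305136 to 27337692) was the most abundant LTBP gene, at 114, 135 and 156 CPM in mutants and 119, 110 and 125 CPM in wt. Mutant replicate 3 was highest, as it was for summed fibroblast markers, and mutant replicate 1 lay within the wt range. Its log2 fold change was 0.19 ± 0.13 (adjusted p = 0.889). Ltbp2, a relative that does not bind latent TGF-beta, averaged 10.5 ± 1.01 CPM (mutants) and 7.998 ± 3.41 CPM (wt; SD, n = 3 per group).

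The membrane carrier genes pointed in different directions, and neither passed the test. Nrros (ENSMUSG00000052384.14, chromosome 16, minus strand, 32142785 to 32165594), the myeloid carrier, was at 483, 365 and 413 CPM in mutants and 463, 451 and 487 CPM in wt. Mutant replicates 2 and 3 were below all wt libraries, whereas mutant replicate 1 lay inside the wt range. The spread was wider among mutants, with a coefficient of variation of 14.0% against 3.93% in wt. Its log2 fold change was -0.15 ± 0.11 (95% interval -0.40 to 0.10, adjusted p = 0.899, edgeR). Lrrc32 (ENSMUSG00000090958.2, chromosome 7, plus strand, 98489283 to 98502181), which encodes GARP, was at 26.1, 33.2 and 30.3 CPM in mutants and 27.2, 19.7 and 25.9 CPM in wt. Only mutant replicate 1 fell below the highest wt library, and the log2 fold change was 0.30 ± 0.18 (95% interval -0.10 to 0.70, adjusted p = 0.851). GARP is known from regulatory T cells, platelets and endothelial cells. The 8 markers of regulatory T cells summed to 8.87 to 16.6 CPM in mutants and 12.2 to 15.0 CPM in wt. Of these, 7 were tested and 2 had a positive log2 fold change, with a median of -0.37. Foxp3, their defining gene, was at 1.30, 0.508 and 0.123 CPM in mutants and at 0.131, 0 and 0 CPM in wt, and Tnfrsf18 was at 4.67 to 10.6 CPM over all libraries. The 12 endothelial markers were in the range given above, overlapping between groups. The part of these cells in the level of Lrrc32 was not tested.

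The integrin genes differed widely in level. Per kilobase in wt, Itgav stood above 55.4% of the tested genes and Itgb1 above 93.4%, whereas Itgb6 stood above 15.2%. Itgav (ENSMUSG00000027087.11, chromosome 2, plus strand, 83724397 to 83806916) was at 34.4, 29.6 and 23.2 CPM in mutants and 28.7, 31.3 and 18.9 CPM in wt. The groups overlapped, and the log2 fold change was 0.14 ± 0.22 (adjusted p = 0.976, edgeR), which turned to -0.048 without wt replicate 3. Its exons share 634 bases with Gm13684, which had 9.42% as many counts. Per kilobase, Itgb1, a partner chain shared by many integrins, exceeded Itgav 12.1-fold to 21.8-fold over the 6 libraries. Of the Itgav partners Itgb1, Itgb3, Itgb5 and Itgb6, 0 of 4 passed. Itgb5 had the smallest p, at 17.4, 10.03 and 18.1 CPM in mutants and 6.996, 9.77 and 7.97 CPM in wt. Its mutant libraries exceeded each wt library, mutant replicate 2 by a narrow margin (log2 fold change 0.88 ± 0.27, adjusted p = 0.498).

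Itgb8 (ENSMUSG00000025321.14, chromosome 12, minus strand, 119158022 to 119238802), the chain that pairs with alpha-V to activate latent TGF-beta on dendritic and epithelial cells, had 14, 3 and 28 counts in mutant replicates 1 to 3 and 0 counts in each wt library. These counts correspond to 0.387, 0.102 and 0.861 CPM. A level of up to 0.0938 to 0.0991 CPM in a single wt library is compatible with 0 counts (3 counts of the library, counting error only), and mutant replicate 2 was itself at 3 counts. Pooled over each group, mutants had 45 counts, 14.2-fold the level of the 3 counts that 0 allows over the wt group. This ratio takes the mutant counts without error, so it is not a lower limit of the fold. Of the 45 counts, 28 came from mutant replicate 3, and without that library the ratio was 8.0-fold. Without 1 wt library it was 9.28-fold to 9.54-fold. Itgb8 was too low for the filter of the main test. With no filter on low counts, edgeR gave it an unadjusted p of 0.00404 and an adjusted p of 0.311. It also passed the filter when mutant replicate 2 was left out (adjusted p = 0.463, edgeR). The same held when any single wt library was left out (adjusted p 0.552 to 0.763, edgeR). It was called in none of these settings. Mutant replicate 3, the highest for Itgb8, also held the highest summed dendritic cell markers (61.2 CPM, against 42.6 to 48.9 in wt) and epithelial markers. Of these lists, 10 of 10 and 14 of 14 genes were detected in at least 1 library. Ccr7 alone gave 28.8 CPM of that dendritic sum, and 4 of the 9 tested dendritic markers had a positive log2 fold change (median -0.24). Mutant replicate 1, with 14 Itgb8 counts, lay within the wt range for both sums (47.8 and 554 CPM). The part of these cells in the Itgb8 counts was not tested.

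Thbs1 (ENSMUSG00000040152.8, chromosome 2, plus strand, 118111876 to 118127133) is the member with the smallest p. It encodes thrombospondin 1, a secreted glycoprotein that binds the latency-associated peptide and releases TGF-beta. Its level was 4308, 4240.5 and 4276 CPM in mutants and 3127, 3225 and 3344 CPM in wt. The groups were well apart: the lowest mutant library was above the highest wt library, and the coefficient of variation was 0.788% among mutants and 3.36% among wt. The ratio of the means was 1.32 (95% interval of the fold 1.19 to 1.47), the log2 fold change was 0.40 ± 0.07 (SE), and its p ranked 10 among all genes. By edgeR the unadjusted p was 0.000168 and the adjusted p 0.242, which does not pass. DESeq2 gave an adjusted p of 0.000698 at a log2 fold change of 0.40, and limma-voom 0.0604; over the 12 alternatives it ran from 0.000698 to 0.666. Relative to Nrros in the same library, Thbs1 per kilobase was 6.14-fold to 7.99-fold in mutants and 4.65-fold to 4.92-fold in wt. Nrros itself had a log2 fold change of -0.15. Relative to Tgfb1 the groups overlapped, at 971-fold to 1254-fold in mutants and 1040-fold to 1532-fold in wt. The differences between groups in these ratios were not tested.

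Thbs1 is also abundant in platelets, macrophages and stromal cells, so their markers are given beside it. The 12 platelet markers summed to 17.7 to 23.6 CPM in mutants and 16.1 to 22.1 in wt; 11 were detected, Gp1bb was at 0 in all libraries and Pf4, a platelet chemokine gene, was at 0.0660 to 0.887 CPM. Alveolar macrophage markers were above wt in all 3 mutant libraries (665 to 1332 against 378 to 606 CPM for 14 genes, none at 0 in all libraries), as were the 12 fibroblast markers (768 to 1328 against 656 to 751 CPM). The alveolar macrophage sum is led by Chil3 (162 to 999.7 CPM), which neutrophils also express. The 12 markers of monocytes and other macrophages overlapped between groups, at 1023 to 1088 CPM in mutants and 1067 to 1090 CPM in wt. Of these, 6 of 12 had a positive log2 fold change, with a median of 0.01. The part of all these cells in the Thbs1 difference was not tested.

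**Figure D3:**
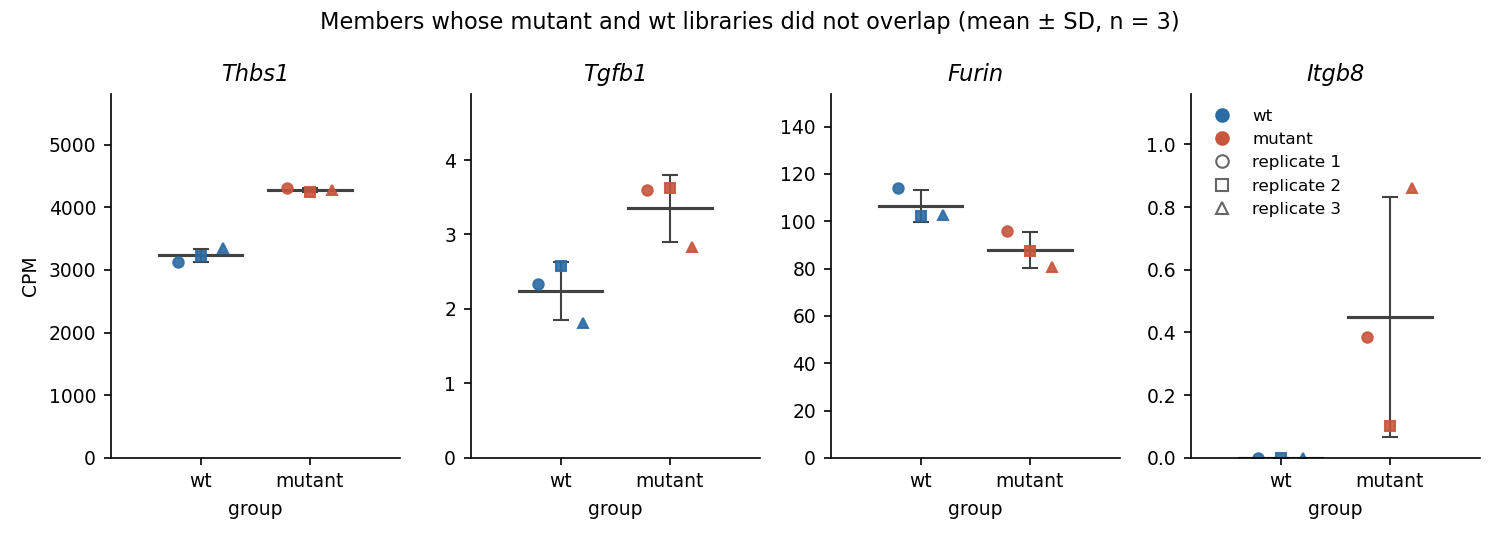
CPM in each library of the 4 members whose mutant and wt libraries did not overlap, on axes that start at 0, with the mean and SD of each group (n = 3). Thbs1, Tgfb1 and Itgb8 are higher in mutants and Furin is lower, and of these Itgb8 was not in the main test and the other 3 did not pass it.

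**Figure D4:**
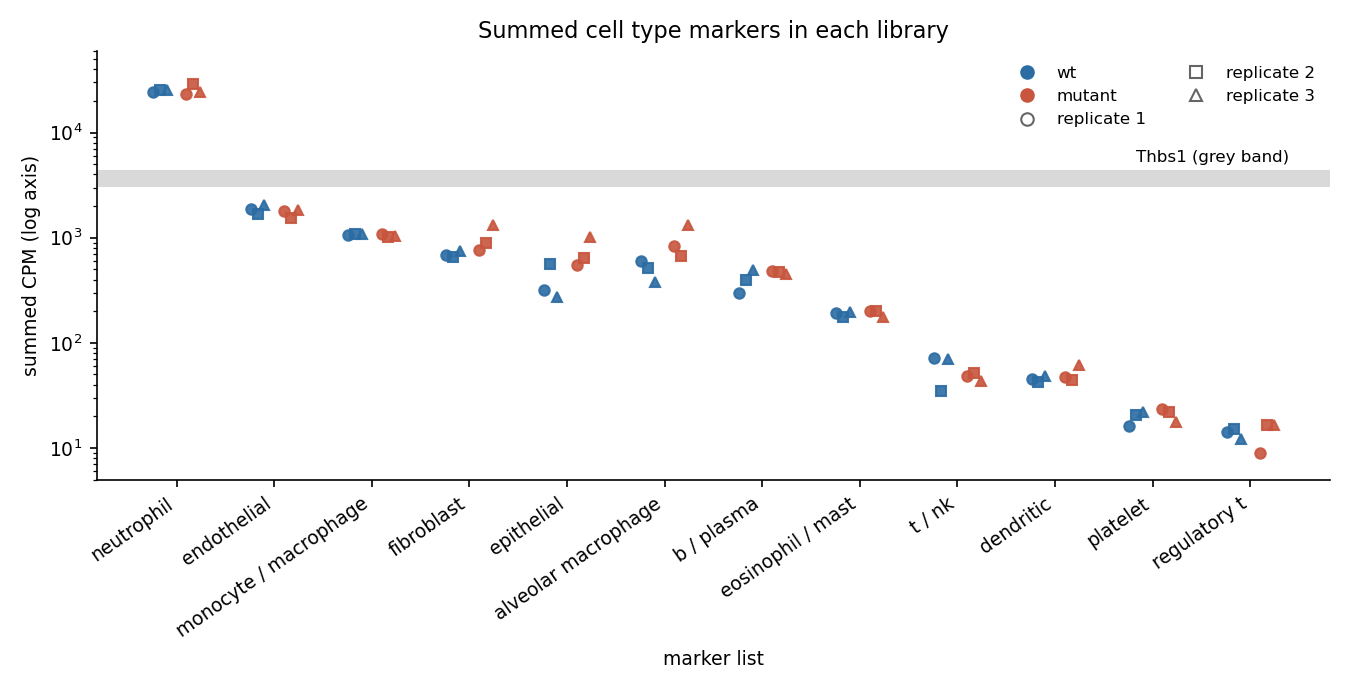
CPM summed over each list of cell type markers in each library, on a log axis; blue is wt, red mutant, and the grey band spans the Thbs1 level over the 6 libraries. Alveolar macrophage and fibroblast sums are higher in every mutant library than in every wt library, and the platelet sums lie between 16.1 and 23.6 CPM.

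The genes whose pattern over the 6 libraries was most like that of Thbs1 were S1pr2 (Pearson r = 0.994 on log2 CPM), Tmem167 (0.991) and Atxn1l (0.991), out of 6909 genes averaging 10 CPM or more. For Tgfb1 they were Fam49b (0.981), Mir22hg (0.977) and Cdkn2aipnl (0.976) among 6910 genes. S1pr2, a sphingosine 1-phosphate receptor gene, was at 74.1, 76.7 and 75.1 CPM in mutants and 40.3, 39.4 and 43.3 CPM in wt. The 6 libraries span both groups, and 84 genes had an r above 0.9 with Thbs1 and 70 with Tgfb1.

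The wider set of TGF-beta storage and activation genes held 42 further genes, of which 35 passed the filter on low counts. edgeR called 0 of them in either direction, and so did DESeq2. With unadjusted p under 0.05, 8 were above wt and 0 below (background 3.51% and 3.22%), and the log2 fold change was positive in 22 and negative in 13, with a median of 0.16. In 8 of the tested genes the mutant libraries exceeded each wt library, and in 1, Tgfb2, they lay below each (background 6.82% and 6.21%). The smallest p values on the higher side belonged to matrix and integrin genes. Dcn, the gene of decorin, a matrix proteoglycan that binds TGF-beta, was at 51.8, 46.96 and 73.6 CPM in mutants and 40.7, 32.03 and 38.9 CPM in wt (log2 fold change 0.63 ± 0.19, adjusted p = 0.484). Itga8, whose product pairs with beta-1 and also binds the propeptide, was at 42.7, 36.4 and 53.7 CPM in mutants and 30.7, 30.8 and 29.5 CPM in wt (0.55 ± 0.17, adjusted p = 0.495). Itgb5, given above, was the other. All 3 were higher in every mutant library.

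Among the 14 docking genes of the matrix and cell surface, 12 were tested, 0 passed and 9 had a positive log2 fold change, with a median of 0.29. Bgn (biglycan), Emilin1, Fbn1 (fibrillin-1) and Fn1 (fibronectin), named after their values were seen, had log2 fold changes of 0.49, 0.45, 0.56 and 0.44, with mutant libraries above each wt library and adjusted p from 0.551 to 0.766 by edgeR. Fibroblast markers, which share Dcn and Fn1 with this set, were positive in 11 of 12 with a median of 0.47, and their part was not tested. On the lower side the smallest p values were those of Fermt3, the gene of kindlin-3, which activates integrins in blood cells (282 ± 28.3 against 316 ± 13.3 CPM, adjusted p = 0.870), of Cd109, a surface protein that binds TGF-beta (0.754 ± 0.518 against 1.52 ± 0.299 CPM, adjusted p = 0.899), and of Itgb3 (39.9 ± 10.8 against 49.4 ± 11.99 CPM, SD, n = 3 each, adjusted p = 0.902 by edgeR).

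The proteases known to release TGF-beta were unevenly expressed. Mmp9, the gene of gelatinase B, stood at 1061, 2052 and 1095 RPKM in mutants and 1184, 1257.5 and 1309 RPKM in wt, above Thbs1 in all 6 libraries. Mutant replicate 2 was the highest of the 6 libraries, and the groups overlapped (log2 fold change 0.17 ± 0.21, adjusted p = 0.963). Plaur, the urokinase receptor gene, was the most abundant docking gene at 1174 ± 77.4 and 1152 ± 124 RPKM (SD, n = 3 each). Elane, Plg and Klkb1, by contrast, had 0 counts in all 6 libraries. These are RNA counts and do not give the level of the proteins. Besides Mmp9, Plaur, Thbs1 and Nrros, only Tgm2 (transglutaminase 2), Hspa5 (a chaperone of the endoplasmic reticulum) and Cd36 (a receptor of thrombospondin 1) among the 52 genes exceeded 80 RPKM in every library, at wt means of 353, 206 and 120.3 RPKM.

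**Figure D5:**
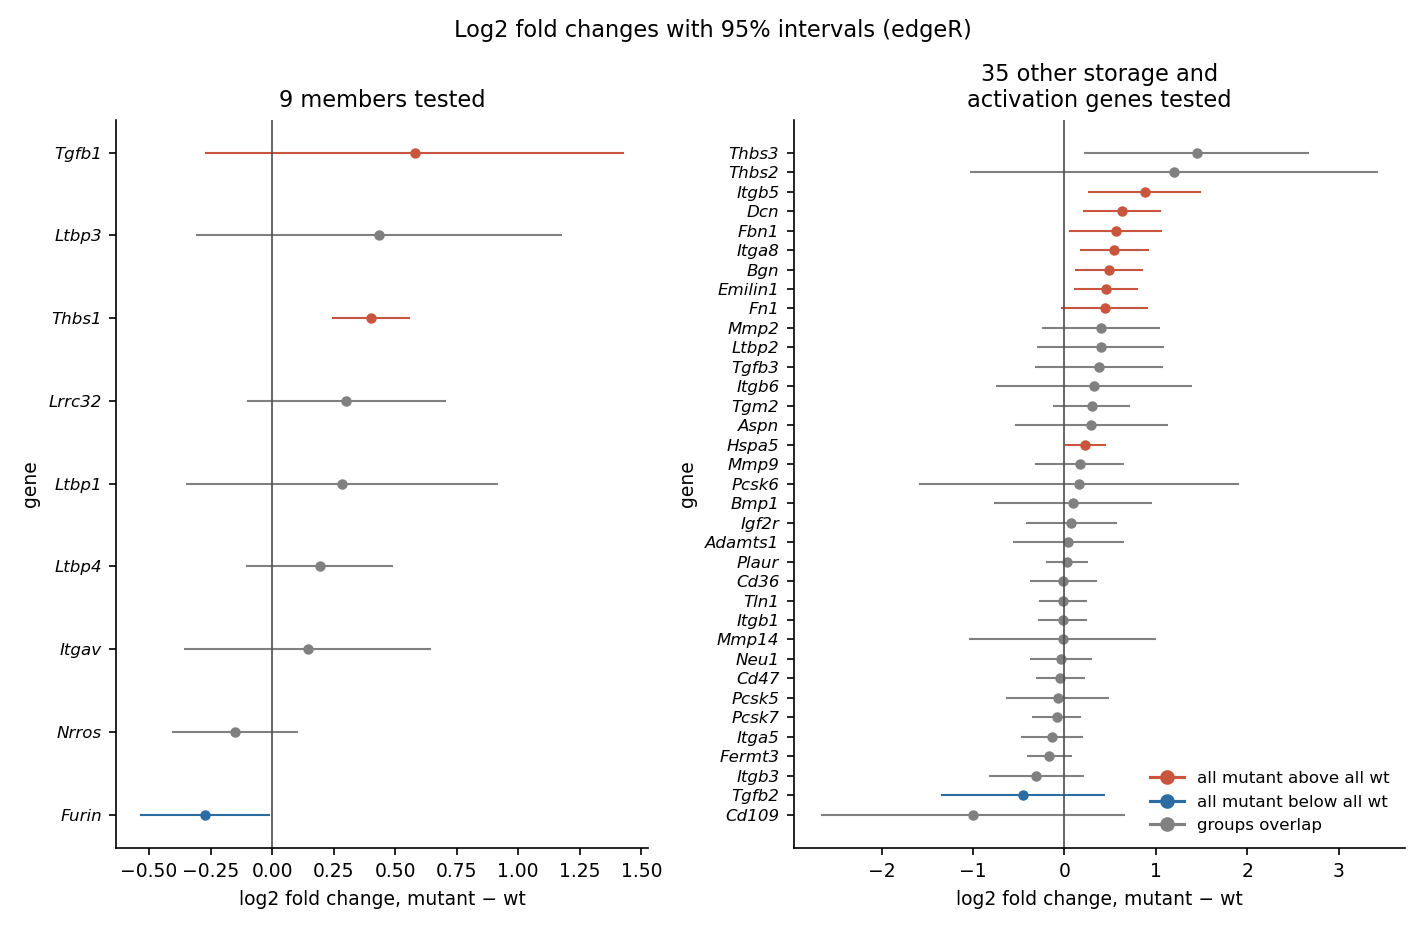
Log2 fold changes of mutant minus wt with 95% intervals by edgeR for the 9 tested members (left) and the 35 other tested storage and activation genes (right); red marks genes whose mutant libraries exceed each wt library, blue those that lie below each, grey the rest. Among the members the intervals of Thbs1 and Furin leave out 0, and none of the genes shown passed the adjusted threshold.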

How the data were processed

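The authors deposited 1 table of raw read counts per gene for the 6 libraries, made with STAR and featureCounts on GRCm38, per the submitters' processing notes. Tool versions, annotation release and strand counting: not given in the sources used here. Libraries were made by SMART-Seq v2, per the labels' protocols, a method without strand or molecular identifiers, so floors cover counting error only. Per the file headers, the length column (a quantity of another kind, in bases) sums each gene's merged exons. Identifiers were paired with symbols by GENCODE M21 (55094 exact, 300 without version, 93 none).

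Genes were kept by filterByExpr (edgeR 4.0.16, R 4.3.3; minimum count 10), which left 15774 genes, and scaled by TMM. Mutant and wt libraries entered edgeR's quasi-likelihood test with Benjamini-Hochberg adjustment at 5% over all genes; SE is the fold change over the square root of F. The script was tested on simulated data. Alternatives were DESeq2 (1.42.0), limma-voom (limma 3.58.1), other scalings and filters, and leaving out each library. The length of the longest coding transcript, and the Itgb8 ratio without each library, were alternatives chosen after seeing the data. Replicate numbers follow accession order. Members and lists were chosen with earlier results of these data known. Named genes are the members; of 42 further genes the 3 with the smallest p in each direction and the most abundant of each role; and 3 genes most like Thbs1 and Tgfb1. Tgfb2, Bgn, Emilin1, Fbn1, Fn1, Hspa5, Tgm2, Cd36, Elane, Plg, Klkb1, Tgfbr2 and the markers were added for context or after their values were seen.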

Additional observations from a re-analysis of the deposited data

How the results depend on the processing

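Over the 12 alternatives (11 for Tgfb1 and Ltbp3, which average under 10 CPM), 8 of the 9 tested members kept the sign of their log2 fold change throughout; Itgav ranged from -0.048 (without wt replicate 3) to 0.29 (without wt replicate 2) with 1 library left out. Leaving out 1 library at a time gave 0.38 to 0.43 for Thbs1 (adjusted p 0.25 to 0.666) and -0.34 to -0.22 for Furin (0.687 to 0.952). The less steady members were Ltbp1 (0.049 to 0.55), Ltbp3 (0.20 to 0.77), Ltbp4 (0.078 to 0.30), Nrros (-0.26 to -0.065), Lrrc32 (0.17 to 0.39) and Tgfb1 (0.45 to 0.69). The number of members called higher was 0, but 1 by DESeq2's Wald test (Thbs1, log2 fold change 0.40), and 0 were called lower under every alternative. Genes called higher over the whole table numbered 81 by DESeq2, 41 with no filter on low counts and 14 when genes averaging under 10 CPM were dropped, against 1, and 0 to 1 with a library left out (0 without mutant replicate 1, wt replicate 1 or wt replicate 3). Genes called lower numbered 74, 29 and 4, against 0, and 0 to 1 with a library left out (1 without mutant replicate 2). Why the tools and filters differ was not tested. No paired analysis was possible because the labels give no replicate numbers that the groups share; the library codes alternate between mutant and wt, and whether neighbours are litter or processing pairs is not stated, so pairing is unknown. Depth limits Tgfb1 (58 to 130 reads) and Itgb8 (0 to 28 reads).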
